A study of Rattus norvegicus with 63 samples.

Results

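Expression of 7 genes of the striatal cyclic AMP cascade was followed in rats that had worked for psychostimulant infusions. The genes were Gnal and Gng7 (G protein subunits), Adcy5 (an adenylyl cyclase), Pde10a, Pde1b and Pde2a (phosphodiesterases) and Ppp1r1b, which encodes DARPP-32. They were taken by their annotated symbol. Of the array's 31099 probe sets, 11 carry one of these symbols and no other, and each gene was read from its probe set of highest mean signal, which gives 7 of 14218 genes. The second probe sets of Pde10a, Pde1b, Adcy5 and Gnal are described separately. All 7 genes passed the filter that left out the 40% of genes with the lowest mean signal, so they are among the 8530 genes tested in each fit.

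The study hybridised 63 Affymetrix arrays, 31 of prefrontal cortex (PFC) and 32 of striatum (rostral caudate putamen with the nucleus accumbens), from male Wistar rats. The rats arrived at 4 weeks of age and were injected intraperitoneally 2 times a day for 7 days from 6 weeks of age. In the naive cohort these injections were saline. Naive rats were then conditioned in a place preference test with amphetamine at 1.25 or 5 mg/kg, methamphetamine at 1.25 or 5 mg/kg, methylphenidate at 5 mg/kg, or saline. In the pretreated cohort the injections were amphetamine, methamphetamine or methylphenidate at 5 mg/kg, and the same drug and dose served for conditioning, while the control rats of this cohort received saline at both steps. Every rat then self-administered intravenously what it had been conditioned with, at 0.1 mg/kg per infusion of amphetamine or methamphetamine, 0.25 mg of methylphenidate in 0.1 ml, or 0.1 ml of saline. Brains were taken a day after the last session, and the stimulant rats were those with the most robust self-administration. In each region the naive cohort has 3 arrays per stimulant group and 5 saline arrays, except that PFC after methamphetamine 1.25 mg/kg has 2. The pretreated cohort has 3 arrays in each of its 4 groups per region. The design text speaks both of single rats and of RNA pools, so p-values here measure only the spread between arrays.

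In striatal projection neurons, dopamine D1 and adenosine receptors act through the G protein Golf, whose alpha and gamma subunits are encoded by Gnal and Gng7, on adenylyl cyclase 5. The cyclic AMP it makes activates protein kinase A, and phosphorylation by that kinase turns DARPP-32 into an inhibitor of protein phosphatase 1. Phosphodiesterases break the second messenger down: PDE10A is a hallmark enzyme of these neurons, PDE1B is activated by calcium and calmodulin, and PDE2A is stimulated by cyclic GMP and is also found in cortex. Psychostimulants raise extracellular dopamine in the striatum, and this cascade is one of the routes by which that dopamine is read.

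Values are log2 of the deposited MAS5 signal, which was scaled so that every array has a trimmed mean near 500.2, and a difference in total RNA is therefore not visible. Striatal arrays carried the markers of their label. The mean log2 signal of the striatal projection neuron markers was 10.76 to 11.42 on 31 striatal arrays, against 6.87 to 8.52 on 31 PFC arrays, and that of the cortical neuron markers was 7.16 to 9.03 in striatum, against 9.85 to 10.40 in PFC. One array stood apart: methamphetamine 1.25 mg/kg replicate 1 of the naive striatum had 7.60 for Drd2 and 10.78 for Slc17a7, values inside the PFC ranges. On it Ppp1r1b had 9.89, Pde10a 10.36, Pde1b 10.77, Pde2a 11.85, Adcy5 9.44, Gnal 8.73 and Gng7 9.05. For 6 of the 7 genes this lies within the range of the PFC arrays, and Gnal lies above the highest PFC array at 8.60. The array was left out of every fit, so 62 arrays were used and that striatal group has 2. Naive arrays also fall into 2 sets by the signal of the hybridisation spike-in BioB, a bacterial transcript added to each sample: 23 arrays with high spike-in signal (9.01 to 10.31) and 16 with low (5.69 to 6.56). The labels name no such sets. In each region saline replicates 1 to 3 are in the high set and saline replicates 4 and 5 in the low set, while both amphetamine 5 mg/kg and methylphenidate 5 mg/kg lie wholly in the low set and all other naive stimulant groups wholly in the high set.

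**Figure D1:**
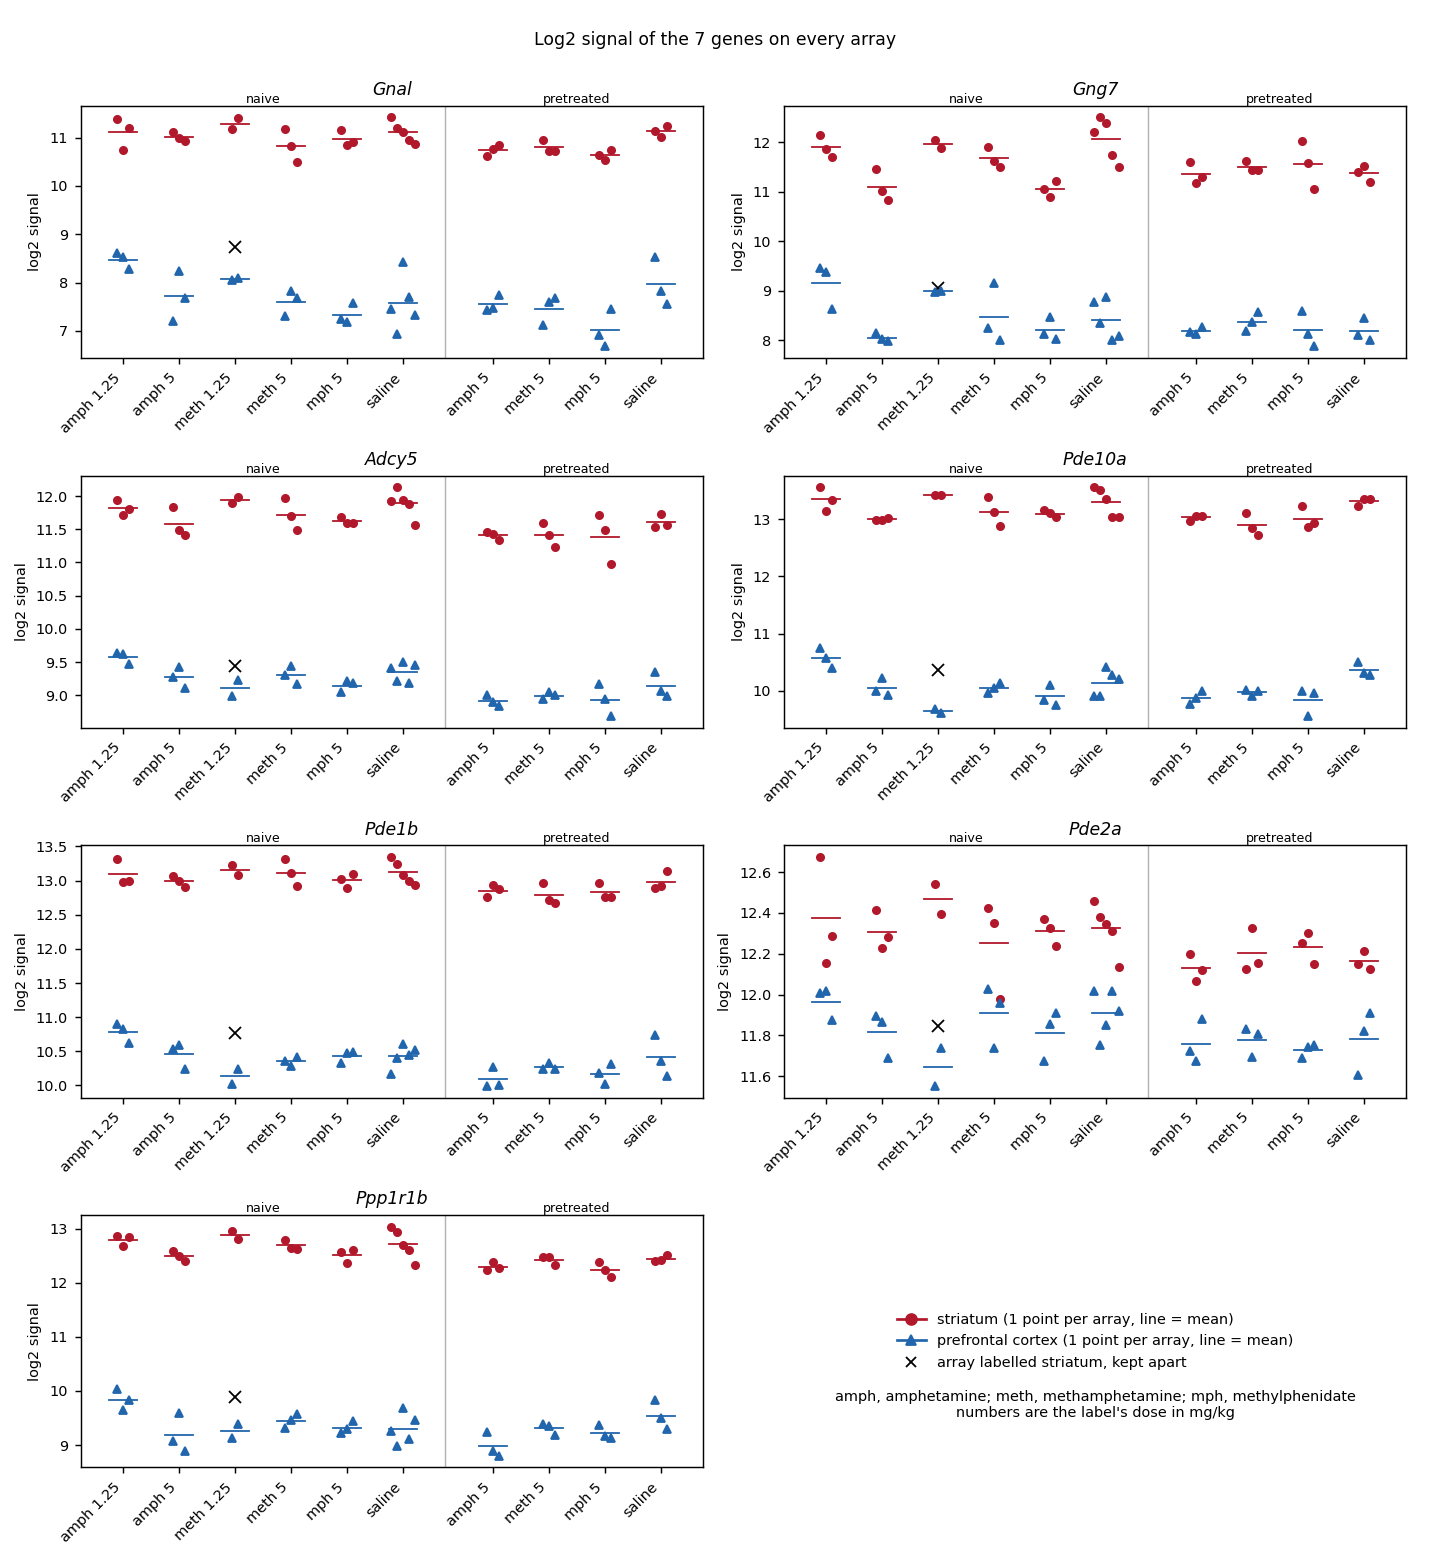
Log2 signal of each of the 7 genes (vertical axis, 1 panel per gene) on every array, by naive and pretreated group (horizontal axis); circles are striatum, triangles PFC, lines group means, and the cross is the array kept apart. Striatal points lie above PFC points for every gene except for the array kept apart and 1 further array of Pde2a, while groups within a region lie close together.

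The first comparison asks how far the cascade separates striatum from PFC in saline rats. In naive saline rats all 7 genes were higher in striatum, from 12.5-fold for Gng7 to 1.33-fold for Pde2a, and the arrays of the regions did not overlap for any of them. Among all 8530 genes 21.5% passed as higher in striatum and 12.3% had no overlap in that direction, so a high count alone is common here and the size of the differences carries the description. By limma with Benjamini-Hochberg adjustment, at a threshold of 0.05, 7 of 7 passed.

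The Golf alpha subunit gene Gnal (probe set 1384229_at) had 11.42, 11.20, 11.11, 10.94 and 10.88 in naive saline striatum, against 7.45, 6.93, 8.43, 7.70 and 7.33 in naive saline PFC. The gamma subunit gene Gng7 (1368957_at) had 12.19, 12.50, 12.38, 11.74 and 11.50 in striatum, against 8.78, 8.35, 8.88, 8.01 and 8.09 in PFC. Both differences were more than 3 log2 units: 3.54 ± 0.18 (SE) for Gnal, with adjusted p = 6.67e-22, and 3.64 ± 0.19 (SE) for Gng7, with adjusted p = 4.33e-22. Adcy5 (1368298_at), the cyclase that couples to Golf, had 11.93, 12.14, 11.94, 11.88 and 11.56 in striatum, against 9.41, 9.21, 9.51, 9.18 and 9.46 in PFC, a difference of 2.54 ± 0.11 (SE; 5.80-fold).

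Pde10a (1368438_at) had 13.56, 13.52, 13.36, 13.05 and 13.05 in naive saline striatum, against 9.91, 9.91, 10.42, 10.27 and 10.20 in PFC. Pde1b (1384203_at) had 13.35, 13.24, 13.08, 12.99 and 12.94 in striatum, against 10.17, 10.40, 10.61, 10.45 and 10.52 in PFC. These phosphodiesterase genes were 8.99-fold (Pde10a) and 6.44-fold (Pde1b) higher in striatum. Pde2a (1368089_at) behaved unlike them, with 12.46, 12.38, 12.34, 12.31 and 12.13 in striatum, against 12.02, 11.75, 11.85, 12.02 and 11.92 in PFC. Its difference was 0.42 ± 0.08 (SE), with adjusted p = 4.09e-05. Ppp1r1b (1372208_at), the DARPP-32 gene, had 13.03, 12.93, 12.70, 12.60 and 12.32 in striatum, against 9.25, 8.99, 9.69, 9.12 and 9.46 in PFC, and was 10.7-fold higher in striatum (difference 3.42 ± 0.12 SE, adjusted p = 4.23e-29).

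The pretreated cohort's saline rats gave similar sizes. There the striatum minus PFC differences were 3.16 for Gnal, 3.18 for Gng7, 2.47 for Adcy5, 2.95 for Pde10a, 2.57 for Pde1b, 0.38 for Pde2a and 2.90 for Ppp1r1b, again 7 of 7 called (13.4% of all genes were called higher) and 7 of 7 without overlap (23.5%). Only the Pde2a call depended on 1 array, with adjusted p = 0.00421 on all arrays and 0.0576 without PFC saline replicate 1. In rats that had taken stimulants the separation was of like size, with 7 of 7 called higher in each cohort (29.3% of all genes in naive and 26.8% in pretreated rats). Without overlap were 6 of 7 in naive (4.02% of all genes) and 7 of 7 in pretreated stimulant rats (7.20%). Pde2a differed by 0.51 in naive and 0.43 in pretreated stimulant rats, and 1 of 14 naive stimulant striatal arrays, methamphetamine 5 mg/kg replicate 3 at 11.98, lay inside the PFC range. Tissue of this kind mixes cell types, so fewer cells of a type and less RNA per cell cannot be told apart in these values.

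Genes around the members were read from a list of 84 receptors, G proteins, cyclases, phosphodiesterases, kinase subunits, phosphatases and response factors, of which 77 are on the array and 62 were tested. Between naive saline regions 31 were higher in striatum and 14 lower, where 21.5% of all genes were called higher and 19.4% lower, so the lower count is near the background. Their median difference was 0.26, beside 3.17 for the 7 members and 0.03 for all genes. Of the receptors that feed the cascade 3 of 5 were higher, Adora2a by 4.77, Drd2 by 4.69 and Drd1 by 3.74. Of the G proteins and their regulators 4 of 13 were higher, among them Rgs9 by 4.63, an inhibitor of G protein signalling in striatum, and 6 were lower, including Gng2 by -1.03, Rgs7 by -0.96 and Gnas by -0.67, the last encoding the stimulatory alpha subunit that most tissues use in place of Gnal. Of 3 other cyclase genes Adcy2 and Adcy6 were lower, at -1.03 and -0.74, and Adcy3 was higher, at 0.33. Of 8 other phosphodiesterase genes 4 were higher, including Pde4b at 0.44 and Pde9a at 0.38, and 2 were lower, Pde1a at -1.99 and Pde4d at -0.52. Pde1a and Pde1b, which both encode calmodulin-dependent enzymes, differed between regions with opposite signs. Downstream, the regulatory kinase subunit Prkar1b was at -1.01 and Prkar2b at 0.73, the anchor Akap5 at 1.42, and 11 of 17 phosphatase and phosphoprotein genes were higher, led by Rasgrp2 at 3.61, Ptpn5 (the striatal-enriched tyrosine phosphatase) at 2.31, Arpp21 at 1.73 and Rap1gap at 1.58.

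Across the 10 striatal groups the members kept narrow ranges. Over 31 arrays the lowest, median and highest log2 signals were 12.10, 12.51 and 13.03 for Ppp1r1b, 12.72, 13.12 and 13.56 for Pde10a, and 12.67, 12.98 and 13.35 for Pde1b. For Pde2a they were 11.98, 12.28 and 12.68, for Adcy5 10.97, 11.60 and 12.14, and for Gnal 10.49, 10.94 and 11.42. Gng7 had the widest striatal range, from 10.83 through a median of 11.51 to 12.50. Ordered by group mean, naive methamphetamine 1.25 mg/kg was the highest striatal group for 6 genes, for instance 12.88 ± 0.11 for Ppp1r1b (SD, n = 2), and naive saline was highest for Gng7 at 12.06 ± 0.43 (SD, n = 5). The lowest group was a pretreated stimulant group for those 6 genes, such as pretreated methamphetamine for Pde10a at 12.90 ± 0.20 and pretreated methylphenidate for Gnal at 10.63 ± 0.10 (SD, n = 3 each), and naive methylphenidate for Gng7 at 11.05 ± 0.17 (SD, n = 3). Neighbouring groups in that order had overlapping arrays in all 9 pairs for every gene but Ppp1r1b, for which 8 of 9 overlapped. The low spike-in set holds naive arrays only, and its part in differences of level between cohorts was not tested.

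In PFC the order was the same for every member in one respect: naive amphetamine 1.25 mg/kg was the highest of the 10 groups for all 7 genes. The group means spanned from 0.32 for Pde2a to 1.46 for Gnal, whose highest group stood at 8.47 ± 0.17 and lowest, pretreated methylphenidate, at 7.02 ± 0.39 (SD, n = 3 each). Here too most neighbours in the order overlapped.

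The second comparison asks whether the cascade differed between stimulant and saline rats. Stimulant rats had the drug at conditioning as well as by self-administration, and in the pretreated cohort also in the earlier injections. They were also those with the most robust self-administration. The parts of these steps cannot be told apart. Taking the mean of the stimulant groups against saline, 0 of 7 members passed in any of the 4 combinations of region and cohort by limma. The background was 0.246% of 8530 genes in naive striatum, 1.91% in pretreated striatum, 0.0586% in naive PFC and 0.0703% in pretreated PFC. At an unadjusted p under 0.05 the counts of members were 1, 2, 0 and 4 in the same order, and those of all genes 1046, 1594, 745 and 465. The median difference over the members was -0.07, -0.16, 0.00 and -0.24, where that of all genes lay between -0.01 and 0.00. In naive PFC the members' differences were 0.27 for Gnal, 0.16 for Gng7, -0.07 for Adcy5, -0.10 for Pde10a, 0.00 for Pde1b, -0.08 for Pde2a and 0.11 for Ppp1r1b, with adjusted p of 0.693 or more.

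**Figure D2:**
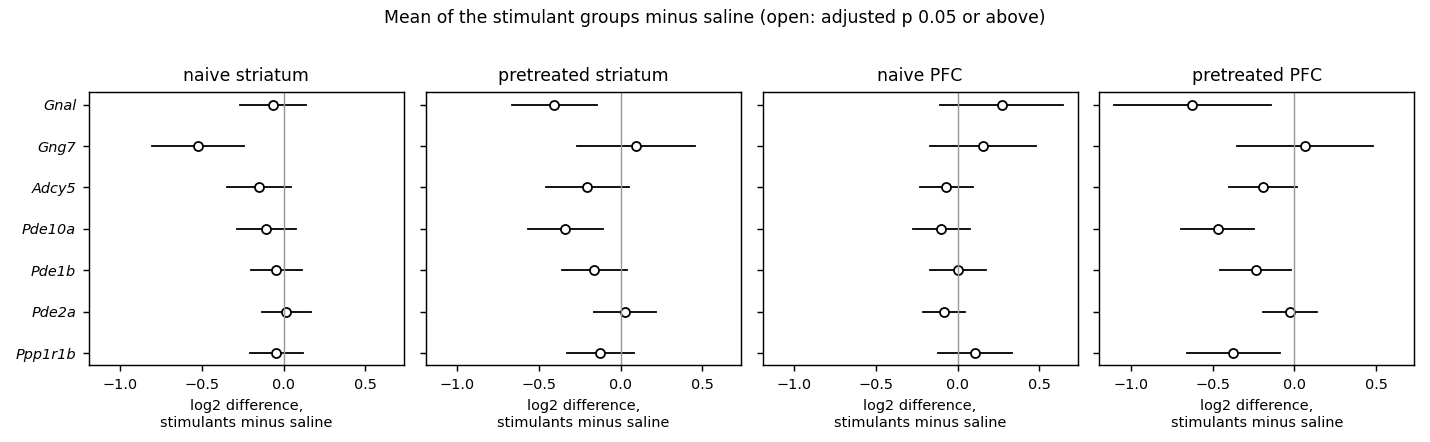
Log2 difference of the mean of the stimulant groups minus saline (horizontal axis) for each of the 7 genes (vertical axis) in the 4 combinations of region and cohort; bars are 95% confidence intervals of the fit and open circles did not pass. Every circle is open; the lowest values are -0.53 for Gng7 in naive striatum and -0.62 for Gnal and -0.47 for Pde10a in pretreated PFC.

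Gng7 stood lowest among the members in naive striatum. It had 12.13, 11.86 and 11.70 after amphetamine 1.25 mg/kg, 11.45, 11.01 and 10.83 after amphetamine 5 mg/kg, and 12.04 and 11.89 after methamphetamine 1.25 mg/kg. After methamphetamine 5 mg/kg it had 11.89, 11.62 and 11.50 and after methylphenidate 5 mg/kg 11.06, 10.88 and 11.22, against 12.19, 12.50, 12.38, 11.74 and 11.50 in saline. All arrays of the amphetamine 5 mg/kg and methylphenidate 5 mg/kg groups lay below every saline array, as 4.92% and 3.96% of all genes did in these groups, and the other groups overlapped with saline. Taken singly, Gng7 fell by 0.96 on the log2 scale (SE 0.19, adjusted p = 0.0365) after amphetamine 5 mg/kg and fell by 1.01 (SE 0.19, adjusted p = 0.0277) after methylphenidate 5 mg/kg, which is to 0.512-fold and 0.497-fold of saline. It was the only member called in either comparison, where 0.469% and 0.188% of all genes were called. No member passed after amphetamine 1.25 mg/kg (0.492%), methamphetamine 1.25 mg/kg (0%) or methamphetamine 5 mg/kg (0.539%). The amphetamine 5 mg/kg and methylphenidate groups lie in the low spike-in set, in which the saline arrays were also lower than in the high set, at 11.74 and 11.50 against 12.19, 12.50 and 12.38. Against the 2 saline arrays of their own set the differences were -0.52 for amphetamine 5 mg/kg (adjusted p = 0.781) and -0.57 for methylphenidate (adjusted p = 0.784), neither of which passed. Leaving out single arrays, the amphetamine call held in 2 of 8 fits (without saline replicate 4 or 5; adjusted p 0.00374 to 0.212 over all 8) and the methylphenidate call in 4 of 8 (0.00337 to 0.152; lost without saline replicate 2 or 3 or methylphenidate replicate 1 or 2).

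Within array sets the Gng7 differences were alike in sign. In the high set amphetamine 1.25 mg/kg differed by -0.46 from its saline arrays, methamphetamine 1.25 mg/kg by -0.39 and methamphetamine 5 mg/kg by -0.69 (adjusted p = 0.0560), so all 5 naive stimulant groups were below the saline of their own set. Every single stimulant array lay below each saline array of its set, in both sets, which was so for 1 of the 7 members and 0.176% of all genes, a count made after the values were seen. Over the groups the mean difference was -0.51 in the high set (adjusted p = 0.0741) and -0.54 in the low set (adjusted p = 0.741), with none passing. With the array set as a block the mean of the 5 groups minus saline was -0.53, and this passed (adjusted p = 0.0336, 0.387% of all genes called), while without the block the same -0.53 (95% interval -0.81 to -0.24) gave adjusted p = 0.101. RNA integrity moved with the sets as well: the GAPDH 3' minus 5' control signal was 0.53 to 0.57 log2 in high-set saline striatum and 1.14 to 1.16 in low-set saline striatum. It also moved within the high set, where all 8 stimulant arrays, at 0.58 to 1.08, lay above the 3 saline arrays, while in the low set the 6 stimulant arrays, at 0.92 to 1.23, overlapped with saline. The mean of the striatal marker list overlapped between the groups, at 10.97 to 11.42 on stimulant arrays and 11.06 to 11.32 on saline arrays. Cortical neuron markers did not overlap after amphetamine 5 mg/kg, with means of 8.30 to 8.75, against 7.40 to 8.12 in saline, 8 of 8 above 0 and none called (summed signal 12686.0 to 15377 against 7949 to 12685.8). After methylphenidate 5 mg/kg they overlapped with saline, at 7.55 to 8.24. Within the high set the cortical marker means of all 8 stimulant arrays, at 7.54 to 8.42, lay above the 3 saline arrays, at 7.40 to 7.51. In the low set those of the stimulant arrays, at 7.55 to 8.75, overlapped with saline, at 8.12 and 8.04. Oligodendrocyte marker means moved within the sets too. In the low set all 6 stimulant arrays, at 12.28 to 12.42, lay below the saline arrays, at 12.43 and 12.47. In the high set stimulant arrays had 11.95 to 12.41, against 12.40 to 12.63 in saline, where methamphetamine 5 mg/kg replicate 1 at 12.41 overlapped with saline. The part of RNA integrity and of these markers in the Gng7 values was not tested.

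**Figure D3:**
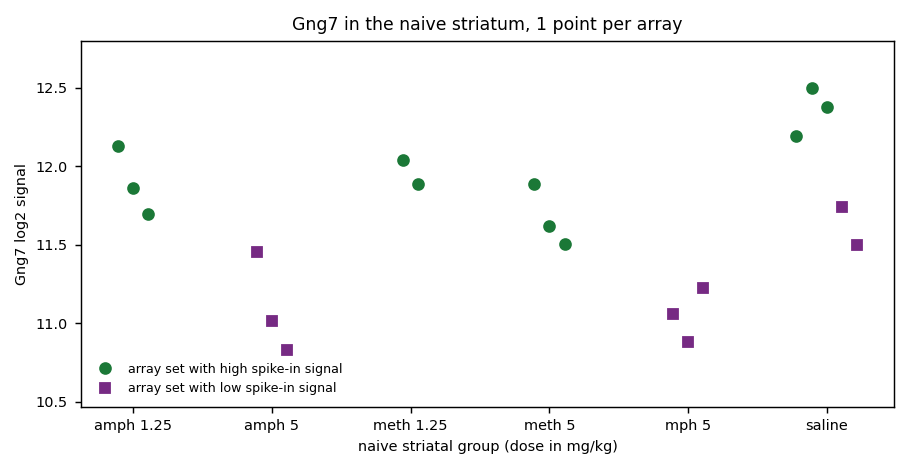
Gng7 log2 signal (vertical axis) on each naive striatal array by group (horizontal axis); circles are the array set with high and squares that with low spike-in signal. Low-set arrays lie below high-set arrays in saline too, and within each set every stimulant array sits below the saline arrays.

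The other members of the naive striatum gave smaller values. After amphetamine 5 mg/kg Pde10a had 12.99, 12.99 and 13.02, against 13.56, 13.52, 13.36, 13.05 and 13.05 in saline, and the groups did not overlap (4.92% of all genes had none in that direction), but the difference of -0.31 gave adjusted p = 0.198. The cortical markers of this group, given above, stood apart from saline as well. Adcy5 differed by -0.31 (adjusted p = 0.237) and Ppp1r1b by -0.23 (adjusted p = 0.290) in the same group. These differences use saline arrays of both sets, while the group lies wholly in the low spike-in set. For Pde10a the saline arrays of that set were the lowest, at 13.05 and 13.05, just above the group. For Adcy5 and Ppp1r1b the group overlapped with the saline arrays of its own set. For the mean of the stimulant groups the 95% intervals were -0.27 to 0.14 for Gnal, -0.35 to 0.05 for Adcy5, -0.29 to 0.07 for Pde10a, -0.20 to 0.11 for Pde1b, -0.13 to 0.17 for Pde2a and -0.21 to 0.11 for Ppp1r1b. Of the wider cascade 0 of 63 genes passed for the mean, and after amphetamine 5 mg/kg 1 did, the inhibitory G protein gene Gnai2, which fell by 0.68.

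In the pretreated striatum the lowest values belonged to Gnal and Pde10a. Gnal had 10.62, 10.75 and 10.84 after amphetamine, 10.95, 10.73 and 10.72 after methamphetamine and 10.63, 10.54 and 10.73 after methylphenidate, against 11.13, 11.02 and 11.24 in saline. Pde10a had 12.98, 13.06 and 13.06 after amphetamine, 13.12, 12.85 and 12.72 after methamphetamine and 13.23, 12.86 and 12.94 after methylphenidate, against 13.24, 13.35 and 13.36 in saline. For both genes 9 of 9 stimulant arrays lay below all 3 saline arrays, a pattern that 3.34% of all genes showed in that direction. The differences were -0.41 ± 0.13 (SE; 0.754-fold; adjusted p = 0.0811) for Gnal and -0.34 ± 0.11 (SE; 0.791-fold; adjusted p = 0.106) for Pde10a, and neither passed. Adcy5 differed by -0.20, Pde1b by -0.16, Ppp1r1b by -0.13, Gng7 by 0.10 and Pde2a by 0.03. No single stimulant gave a call, 0 of 7 each for amphetamine (0.0117% of all genes called), methamphetamine (1.29%) and methylphenidate (0.528%).

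Both genes have a second, dimmer probe set, and these did pass. On the dimmer Pde10a probe set (1370669_a_at) the values were 10.04, 10.22 and 10.28 after amphetamine, 10.24, 9.62 and 9.73 after methamphetamine and 10.21, 9.81 and 10.36 after methylphenidate, against 11.10, 10.94 and 11.12 in saline. On the dimmer Gnal probe set (1394575_at) they were 9.71, 9.87 and 9.74 after amphetamine, 9.998, 9.57 and 9.73 after methamphetamine and 9.74, 9.53 and 9.82 after methylphenidate, against 10.30, 9.95 and 10.38 in saline. Stimulant and saline arrays were separate on the Pde10a probe set, and 1 methamphetamine array overlapped with saline on that of Gnal. In a fit over all 12499 probe sets that passed the filter, the mean of the stimulant groups fell by 1.00 on the log2 scale for Pde10a (SE 0.24, adjusted p = 0.0305) and fell by 0.47 for Gnal (SE 0.11, adjusted p = 0.0274). These were 2 of 10 member probe sets tested, where 2.14% of all probe sets were called. The dimmer Pde1b probe set (1387680_at) differed by -0.43 (adjusted p = 0.245), and that of Adcy5 (1390038_at) lay near the floor of the array, with a striatal median of 1.90, and was not tested after the filter. Taken singly, the Pde10a probe set fell by 1.19 after methamphetamine (adjusted p = 0.0383, 1.55% of probe sets called), and its differences that did not pass were -0.88 for amphetamine (adjusted p = 0.235, 0% called) and -0.93 for methylphenidate (adjusted p = 0.133, 0.408% called).

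These calls rest on few arrays. The Pde10a call held in 6 of 12 fits with 1 array left out, with adjusted p from 0.0148 to 0.157, and was lost without any 1 of the 3 saline arrays, amphetamine replicate 1, methamphetamine replicate 2 or methylphenidate replicate 2. The Gnal call held in 8 of 12, with adjusted p from 0.00920 to 0.204, and was lost without saline replicate 1 or 3, amphetamine replicate 1 or methylphenidate replicate 2. With the array of cortical profile put back into its labelled naive group the differences stayed at -0.998 and -0.467, the SE was 0.43 for Pde10a and 0.20 for Gnal, and adjusted p was 0.249 and 0.243. Both calls held under quantile normalization, a constant added to the signal, no filter, a filter on the lowest 60%, eBayes without trend and the replicate block, with adjusted p from 0.0103 to 0.0450 for Pde10a and 0.0149 to 0.0372 for Gnal. In naive striatum the same probe sets differed by -0.17 for Pde10a and 0.05 for Gnal, neither of which passed.

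**Figure D4:**
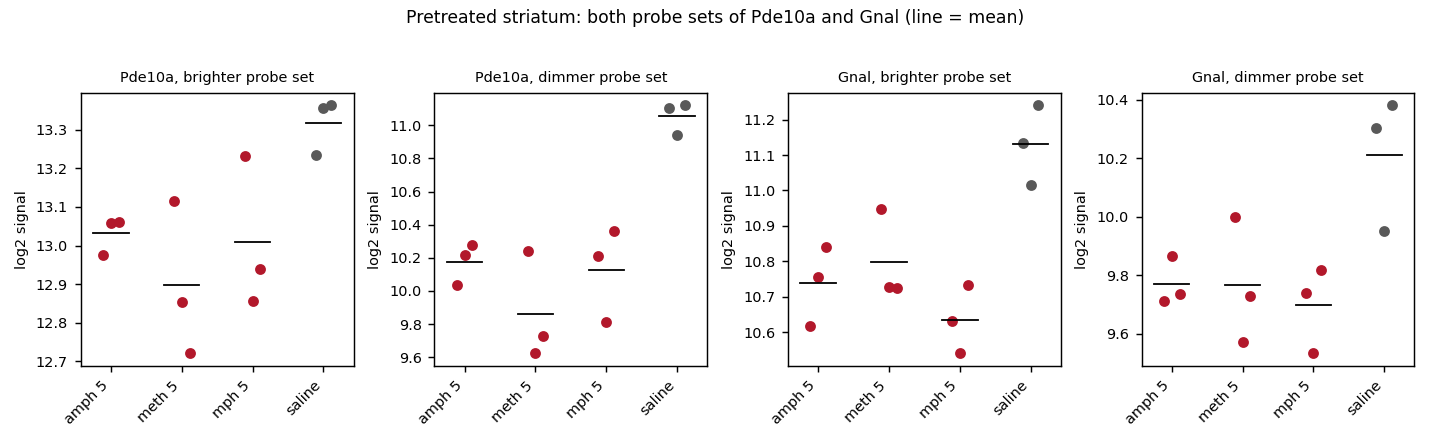
Log2 signal (vertical axis, own scale per panel) of both probe sets of Pde10a and Gnal in the pretreated striatum by group (horizontal axis); points are arrays and lines group means. All 9 stimulant arrays lie below the 3 saline arrays on 3 of the 4 probe sets, and on the dimmer Gnal probe set 1 methamphetamine array lies above the lowest saline array.

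Markers of cell types moved with these values. In the pretreated striatum the mean log2 signal of the striatal projection neuron markers was 10.76 to 11.03 on stimulant arrays, against 11.08 to 11.34 on saline arrays, with 15 of 16 markers below 0, 1 called and a median difference of -0.29. Their summed signal was 64319 to 79400 on stimulant arrays and 79168 to 87307 on saline arrays. Cortical neuron markers were 7.76 to 9.03 on stimulant arrays, against 7.16 to 7.97 on saline arrays, with 7 of 8 above 0, 1 called and a median of 0.76, and their summed signal was 10493 to 17942 against 8876 to 12455. None of the defining markers was at 0 on these arrays: Drd2 was 11.21 to 11.42 on stimulant and 11.63 to 11.64 on saline arrays, and Slc17a7 6.92 to 8.98 and 6.15 to 7.63. The summed signal of the astrocyte markers was 75879 to 95118 on stimulant arrays, against 64124 to 71286 on saline arrays, without overlap, with 8 of 8 markers above 0, none called and a median of 0.18. Their mean log2 signal did overlap, at 11.97 to 12.30 on stimulant arrays, against 11.78 to 11.99 on saline arrays. The summed signal of the interneuron marker list was 14368 to 18931 on stimulant arrays, against 17546 to 20255 on saline arrays. Of its markers 1 of 7 was above 0 and 1 was called, with a median of -0.23. The list holds the GABA synthesis genes Gad1 and Gad2, so in striatum it is not specific to interneurons. The GAPDH 3' minus 5' signal was 0.88 to 1.24 on stimulant arrays and 0.74 to 1.04 on saline arrays. The part of cell composition and RNA integrity in the Gnal and Pde10a values was not tested. Of the wider cascade 5 of 63 genes fell and 0 rose in this comparison, in which 0.926% of all genes fell and 0.985% rose: the cannabinoid receptor gene Cnr1 by 0.74, Rasgrp2 by 0.73, the G protein regulator Rgs4 by 0.48, the beta subunit gene Gnb2 by 0.48 and the cyclic AMP phosphodiesterase gene Pde4b by 0.29.

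In PFC of pretreated rats Pde10a had 9.76, 9.88 and 9.99 after amphetamine, 10.02, 9.91 and 9.99 after methamphetamine and 9.999, 9.55 and 9.97 after methylphenidate, against 10.50, 10.32 and 10.28 in saline. Again 9 of 9 stimulant arrays lay below all saline arrays, which 0.715% of all genes did, and the difference of -0.47 ± 0.11 (SE) gave adjusted p = 0.120, which did not pass. Gnal differed by -0.62 (adjusted p = 0.673), Ppp1r1b by -0.37 (0.673), Pde1b by -0.24 (0.843), Adcy5 by -0.19, Pde2a by -0.03 and Gng7 by 0.07. In the limma fit over all probe sets the dimmer Pde10a probe set differed by only -0.21 (SE 0.16, adjusted p = 0.984). The dimmer Gnal probe set differed by -0.37 (SE 0.15, adjusted p = 0.688). Taken singly, 0 of 7 passed after amphetamine (0.0234%), methamphetamine (0.0117%) or methylphenidate (0.0938%). Striatal projection neuron markers in these PFC samples were 6.87 to 7.76 on stimulant arrays, against 7.52 to 8.04 on saline arrays, with 0 of 11 above 0, a median of -0.39 and none called, and their part in the Pde10a values was not tested.

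In PFC of naive rats 1 of 35 tests of single stimulants gave a call, for Pde10a after methamphetamine 1.25 mg/kg, the group with 2 arrays. It had 9.69 and 9.61 there, against 9.91, 9.91, 10.42, 10.27 and 10.20 in saline, and the groups did not overlap (14.2% of all genes in that direction). Pde10a fell by 0.49 on the log2 scale (SE 0.14, adjusted p = 0.0240), in a comparison in which 11.1% of all genes were called and 6.33% as lower, so a call is common there. Against saline of its own array set the difference was -0.43 (adjusted p = 0.0718), and leaving out either methamphetamine array ended the call, with adjusted p as high as 0.387, in fits whose 1 remaining array is assumed to vary like the other groups. Cell type markers moved in these 2 arrays. Cortical markers averaged 9.94 and 9.88, against 10.10 to 10.31 in saline (2 of 13 above 0, 1 called), and Slc17a7 was 10.32 and 10.14, against 10.67 to 11.28 in saline. The summed endothelial signal was 4522 and 6277, against 6595 to 8124 in saline (0 of 6 above 0, 1 called), and the summed astrocyte signal 86768 and 74015, against 59937 to 73351 (6 of 8 above 0, 1 rose and 1 fell). The mean log2 signal of the astrocyte markers, at 12.06 and 12.07, lay within the saline range of 11.79 to 12.18. Of 10 oligodendrocyte markers 4 fell and 1 rose. The GAPDH 3' minus 5' signal was 0.80 and 0.42 on these arrays, against 0.25 to 0.37 in high-set saline and 1.02 to 1.20 in low-set saline. The part of these markers and of RNA integrity in the Pde10a value was not tested. No member passed after amphetamine 5 mg/kg (0.0117%), methamphetamine 5 mg/kg (0.0352%) or methylphenidate 5 mg/kg (0%). After methamphetamine 1.25 mg/kg Gng7 had 8.98 and 9.001, both above all saline arrays (12.6% of all genes), with a difference of 0.57 (adjusted p = 0.135). That difference uses saline arrays of both sets, while the group lies wholly in the high set. For Gng7 the low-set saline arrays were the lowest of the saline arrays.

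Amphetamine 1.25 mg/kg in naive PFC gave higher values for every member, though 0 of 7 passed (0.492% of all genes called). Gnal had 8.60, 8.53 and 8.29, against 7.45, 6.93, 8.43, 7.70 and 7.33 in saline, a difference of 0.90 ± 0.26 (SE; adjusted p = 0.112). Gng7 had 9.46, 9.38 and 8.64 (difference 0.74 ± 0.22 SE, adjusted p = 0.130) and Ppp1r1b 10.03, 9.64 and 9.83 (0.53 ± 0.15 SE, adjusted p = 0.112). Pde10a differed by 0.43, Pde1b by 0.35, Adcy5 by 0.22 and Pde2a by 0.05, and 5 of 7 had an unadjusted p under 0.05. These differences use saline arrays of both sets, while the group lies wholly in the high spike-in set. For Gng7 the low-set saline arrays were the lowest of the saline arrays. Striatal markers stood higher in the same samples, with 11 of 11 above 0, 3 called and a median of 0.95. Their mean log2 signal was 7.97 to 8.52 after amphetamine 1.25 mg/kg, against 7.16 to 7.84 in saline, and their summed signal 11224 to 13810.5 against 7398 to 10307. Of the wider cascade Drd1 and Rasgrp2 rose, by 0.97 and 0.81. Cortical markers were 9.85 to 10.04 after amphetamine 1.25 mg/kg, against 10.10 to 10.31 in saline, with 2 of 13 above 0 and none called. Whether these PFC samples held striatal tissue, and how much of the members' difference goes with the striatal markers, was not tested.

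**Figure D5:**
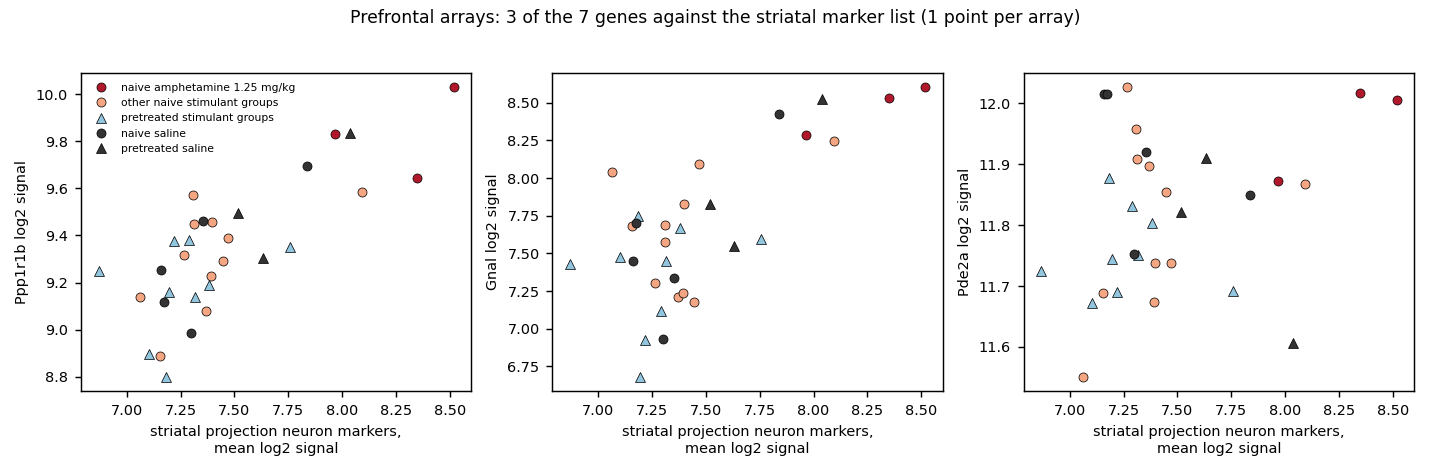
Log2 signal of Ppp1r1b, Gnal and Pde2a (vertical axes) against the mean log2 signal of the striatal projection neuron markers (horizontal axis) on the 31 PFC arrays; colours and shapes give the group. The 3 naive amphetamine 1.25 mg/kg arrays lie at 7.97 to 8.52 on the marker axis, where Ppp1r1b and Gnal are also high and Pde2a shows no such order.

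The third comparison sets stimulants and doses against each other. Amphetamine and methamphetamine differ by an N-methyl group, and methylphenidate is a piperidine ester. At the shared conditioning dose of 5 mg/kg the 3 pairs in each region and cohort make 12 pair comparisons and 84 tests of members, with p-values adjusted over all 8530 genes within each comparison, and 0 of 84 passed. Background calls in naive striatum were 2.25% of all genes for methamphetamine minus amphetamine, 2.30% for methamphetamine minus methylphenidate and 0% for methylphenidate minus amphetamine, and in naive PFC 1.45%, 1.85% and 0%. In the pretreated cohort they were 0% apart from 0.0703% for methamphetamine minus methylphenidate in striatum. The methylphenidate infusion dose is given per infusion and not per body weight, so matched doses hold for conditioning only. The widest values were those of Gng7 in naive striatum, where methamphetamine minus amphetamine was 0.57 (95% interval 0.13 to 1.02, adjusted p = 0.132) and methamphetamine minus methylphenidate 0.62 (0.17 to 1.06, adjusted p = 0.109). Methamphetamine lies in the other array set from both, and with the set as a block these differences were -0.16 and -0.12. Methylphenidate minus amphetamine, within 1 array set, was -0.04 for Gng7. In pretreated striatum, whose arrays have 1 range of spike-in signal, methamphetamine minus amphetamine was -0.13 for Pde10a (95% interval -0.42 to 0.15) and 0.06 for Gnal (-0.26 to 0.38), which leaves room for differences of that size. Over the 12 comparisons the differences ran from -0.54 to 0.44 for Gnal, -0.05 to 0.62 for Gng7, -0.13 to 0.16 for Adcy5, -0.15 to 0.14 for Pde10a, -0.10 to 0.17 for Pde1b, -0.06 to 0.11 for Pde2a and -0.06 to 0.33 for Ppp1r1b.

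For dose, amphetamine at 5 minus 1.25 mg/kg gave calls in naive rats. Gng7 had 11.45, 11.01 and 10.83 in striatum at 5 mg/kg and 12.13, 11.86 and 11.70 at 1.25 mg/kg, and fell by 0.80 (SE 0.22, adjusted p = 0.0438, 2.54% of all genes called). In PFC 3 of 7 members fell (7.07% of all genes called), Gng7 by 1.11 (adjusted p = 0.0116), Ppp1r1b by 0.65 (adjusted p = 0.0242) and Pde10a by 0.52 (adjusted p = 0.0201). The doses lie in different array sets. With the set as a block Gng7 in striatum was at -0.06 (adjusted p = 0.991), and in PFC Gng7, Pde10a and Ppp1r1b were at -0.49, -0.68 and -0.63 (adjusted p = 0.789, 0.229 and 0.524), with none passing. The striatal Gng7 call was lost in each of 6 fits with 1 array left out. In PFC the Gng7 call was lost without amphetamine 1.25 mg/kg replicate 2 (adjusted p = 0.0550), and those of Pde10a and Ppp1r1b in 4 of 6 fits each (highest adjusted p 0.0848 and 0.119). Striatal markers in PFC moved in the same comparison, with 6 of 11 called lower at 5 mg/kg, 1 above 0 and a median of -0.70, and their part was not tested. Methamphetamine at 5 minus 1.25 mg/kg, within 1 array set, gave 0 of 7 calls in each region (0% of all genes). Over both stimulants and regions the members without a call in any dose comparison had differences from -0.76 to -0.10 for Gnal, -0.30 to 0.20 for Adcy5, -0.32 to 0.23 for Pde1b and -0.22 to 0.26 for Pde2a.

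The stimulant minus saline difference was also compared between cohorts, as the pretreated minus the naive effect. Here 0 of 7 members passed in each region (0.598% of all genes in striatum and 0.0117% in PFC). No group had drug injections followed by saline. A lasting effect of the injections and a changed response to the later drug therefore cannot be told apart in this test. In striatum Gng7 gave 0.88 (95% interval 0.41 to 1.36, adjusted p = 0.0569), in a test that used only the groups at 5 mg/kg, of which the naive amphetamine and methylphenidate groups lie in the low spike-in set. Gnal gave -0.24 (-0.57 to 0.10) and Pde10a -0.11 (-0.41 to 0.19), while Adcy5, Pde1b, Pde2a and Ppp1r1b gave 0.04, -0.08, 0.06 and 0.03. In PFC the values were -0.61 for Gnal, 0.24 for Gng7, -0.08 for Adcy5, -0.32 for Pde10a, -0.22 for Pde1b, 0.04 for Pde2a and -0.39 for Ppp1r1b. The striatal minus the PFC effect was also tested, with 0 of 7 passing in either cohort, where 0% of all genes did. Its lowest value was -0.68 for Gng7 in naive rats (95% interval -1.12 to -0.24, adjusted p = 0.660), and the other members lay between -0.34 and 0.25. Since the same cohort's saline arrays enter several comparisons, their values are not independent.

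Array to array, the members were compared by correlation. After taking off each group's mean, the 21 pairs of members correlated across the 31 striatal arrays with Pearson r from 0.34 to 0.85 (median 0.61), and across the 31 PFC arrays from -0.13 to 0.70 (median 0.27). Over all pairs of the 8530 genes tested the median r was 0.00 in both regions. In PFC the 6 pairs with Pde2a had r from -0.13 to 0.06, and Pde1b with Gng7 had -0.01. These are descriptions with no test, and arrays share RNA quality and dissection. Taking off group means also leaves in the gap between the array sets within the naive saline groups, which hold arrays of both. The part of the array sets in the correlations of this paragraph was not tested. Closest in striatum were Pde10a and Pde1b (0.85) and Adcy5 and Gng7 (0.84). Among all genes tested the 3 most like each member in striatum were Rgs9, Lpcat4 and Actn2 for Pde10a (0.87, 0.87 and 0.86), Ptpn5, Slc25a5 and Snx17 for Ppp1r1b (0.86, 0.83 and 0.83), and Camk2b, Pde10a and Dnpep for Pde1b (0.87, 0.85 and 0.83). Gnal was nearest to Gcnt2, Drd2 and Camk2b (0.84, 0.84 and 0.83), Gng7 to Rasd2, Scd2 and Cplx2 (0.87, 0.86 and 0.86), Adcy5 to Tbc1d16, Gng7 and Cbfa2t3 (0.84, 0.84 and 0.80), and Pde2a to Cdk19, Ppp2r5c and Kcnip2 (0.83, 0.83 and 0.79).

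The members' promoters were searched for the core of the cyclic AMP response element, the site through which the cascade's own transcription factor CREB acts. RefSeq (build GRCr8) gave 7 promoters of 300 bases, from 250 bases before to 50 after the start, for 5 of the 7 genes: Pde10a, Pde2a, Adcy5, Gnal and Gng7. The full element TGACGTCA was in none of them, and 1.83% of 33469 rat promoters of this length hold it. The core TGACG, read on either strand (CGTCA on the other), was in 1 of the 7, a promoter of Pde10a, in 2 copies that start 179 and 104 bases before the start of transcription. Of all promoters 21.2% hold the core and 4.96% hold it 2 or more times. The Pde10a promoter is chr1:54765619-54765918 on the minus strand, with the core in capitals, and that of Gng7, the member called in naive striatum, is chr7:9365139-9365438 on the plus strand and is shown beside it because it holds no copy.
Pde10a: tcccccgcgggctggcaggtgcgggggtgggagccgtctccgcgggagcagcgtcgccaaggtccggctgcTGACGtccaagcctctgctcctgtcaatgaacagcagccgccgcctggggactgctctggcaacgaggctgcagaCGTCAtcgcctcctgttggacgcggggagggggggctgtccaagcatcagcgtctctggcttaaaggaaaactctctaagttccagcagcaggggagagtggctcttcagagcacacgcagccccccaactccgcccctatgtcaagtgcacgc
Gng7: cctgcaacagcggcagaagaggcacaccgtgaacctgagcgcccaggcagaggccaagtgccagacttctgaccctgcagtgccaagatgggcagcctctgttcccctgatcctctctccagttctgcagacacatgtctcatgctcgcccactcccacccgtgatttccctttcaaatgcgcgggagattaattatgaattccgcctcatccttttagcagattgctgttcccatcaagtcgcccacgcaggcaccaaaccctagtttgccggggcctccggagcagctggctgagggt
A match of letters is a description and not a measured site, and the probe sets do not tell which promoter was used.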

How the data were processed

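The deposited intensities were MAS5 signal per probe set, summarised and scaled by the authors, per the submitters' processing notes; the MAS5 version and other steps are not given in the sources used here. The trimmed mean was 500.145 to 500.183 on each array and the median signal 120 to 156. Genes were named from the platform annotation: 20832 probe sets had 1 symbol, 436 several and 9831 none. From the deposited signal, log2 values were computed after raising 18232 values under 1 to a floor of 1. Each gene was read from its probe set of highest mean log2 signal, and genes in the lowest 40% of mean signal were left out. Group means were fitted with limma 3.58.1 (R 4.3.3; lmFit, eBayes with trend) on 31 arrays per region (21 residual degrees of freedom) or on 62 arrays for both regions (42), with Benjamini-Hochberg adjustment over 8530 genes and a threshold of 0.05, two-sided. In all, 44 comparisons were made. On data simulated for the pretreated striatal mean over 8530 genes, with 197 tested genes changed by 1 on the log2 scale, 195 were recovered with 3 false calls. The simulated noise held no array sets. Smaller changes were not simulated, while the widest difference of a member in that comparison was -0.41, for Gnal. The recovery therefore does not speak for changes of that size.

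Samples were grouped by their labels. The 70 replicate pairs correlated at 0.931 to 0.958 and 0 were identical. The precision is limited by the number of arrays. One naive striatal saline array (replicate 1) has a description that reads as cortex, while its other labels say striatum; it had 11.92 for Drd2 and 7.08 for Slc17a7 and was kept as striatum. Alternatives changed the normalization, floor, filter, probe set choice, eBayes trend, arrays in the fit, array set or replicate number as a block, and single arrays. The rule was to name all 7 members with all their probe sets in every comparison. It is met by single values for the main contrasts, by ranges for stimulant pairs and doses, and in part for single stimulants, where the members with calls or without overlap are named, and for second probe sets, described mainly in the pretreated striatum. From the wider lists, genes that passed were named, up to 4 a list with the smallest adjusted p, together with the 3 genes nearest to each member and the label markers Drd2, Adora2a, Slc17a7 and Neurod6. Members and lists were chosen with earlier results of these data known.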

Additional observations from a re-analysis of the deposited data

Results flagged for a closer look

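The naive striatal array of methamphetamine 1.25 mg/kg replicate 1, which enters no comparison, carried cortical markers. Slc17a7, the vesicular glutamate transporter gene of cortical excitatory neurons, had a log2 signal of 10.78 on it, against 6.15 to 9.09 on the other striatal arrays. Neurod6, a transcription factor gene of cortical projection neurons, had 10.34, against 5.90 to 8.86. The test for a stray array was run only in the naive saline groups, which have 5 arrays each. It made 14 tests, 1 per gene and region, and 0 flagged an array. The smaller groups were not tested.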

How the results depend on the processing

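The regional calls held under every alternative run except that 6 to 7 of 7 passed in pretreated saline rats with 1 array left out. With the array set as a block, the members passing were 1 for the naive striatal mean (0 otherwise), 0 for single stimulants in naive striatum (2), 0 for single stimulants in naive PFC (1), and 0 for dose in striatum (1) and in PFC (3). Against saline of the same set 0 passed in both naive regions. The replicate number as a block gave 1 for the naive striatal mean, with Gng7 at -0.80 (adjusted p = 0.000646), 2 for the pretreated striatal mean (Gnal 0.0443, Pde10a 0.0416), 9 and 0 for single stimulants in naive striatum and PFC, 1 for those in pretreated striatum, 2 for naive striatal pairs and 1 for the striatal cohort difference. Replicate numbers 4 and 5 occur only in the naive saline groups. In a fit of 1 region these block levels therefore take up the low-set saline arrays. Naive stimulant groups of both sets are then compared with high-set saline only, so the array set is mixed into these naive values. Same-numbered striatal and PFC arrays correlated at -0.109 to 0.127 (30 pairs), 3 of them above 0.1. Different tissues of 1 rat need not deviate together, so these values cannot tell whether same-numbered arrays come from the same rat. The fits over both regions treat them as independent. Quantile normalization gave 1 for the pretreated striatal mean (Pde10a -0.44, adjusted p = 0.0427). Fits on 1 cohort gave 1 there (Gnal, 0.0368), 1 for single stimulants in naive striatum and 0 for striatal dose. With the array of cortical profile included, single stimulants in naive striatum and striatal dose both gave 0, and striatal dose was also 0 with no filter and without the eBayes trend. Leaving out the lowest 60% gave 1 for the striatal cohort difference. The cause of these changes was not tested. Leaving out 1 array gave 0 to 1 for the naive striatal mean (1 without saline replicate 5, Gng7 adjusted p = 0.0254), 0 to 2 for single stimulants in naive striatum and in naive PFC, 0 to 1 for those in pretreated striatum, 0 to 1 and 1 to 5 for dose in striatum and PFC, and 0 to 1 for the striatal cohort difference. No called value changed sign.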
